A study of Mus musculus with 24 samples.

Results

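The astrocyte genes described here are 9 genes that mark astrocytes, the main supporting glial cells of the brain: Gfap, Aqp4, Slc1a2, Slc1a3, Aldh1l1, S100b, Gja1, Sox9 and Glul. They were chosen by name and not by a cut on a measured value, but with earlier results of these data known. They are 9 of the 21368 genes that the array probes could be matched to, and 14 of the 55681 probes on the array. RNA of liver, brain, heart and skeletal muscle was taken from 6 male mice and hybridized to 24 1-color Agilent arrays, 1 for each mouse and tissue. Of these mice, 3 were wild type (WT) and 3 were homozygous for a knock-in allele (Rap1 KI/KI), made with CRISPR/Cas9 in the germ line, that replaces 1 residue of RAP1 (I312R) and removes its binding to the telomere protein TRF2. The knock-in line had been back-crossed to C57BL6 mice, given as C57BL/6N in the study's methods. The animals are numbered WT1, WT2 and WT3 for one genotype and KI1, KI2 and KI3 for the other, and each of the 6 gave all 4 tissues. By age, WT1 and KI1 were 5 months and the remaining 4 were 2 months. Brain and liver RNA was extracted with one kit and heart and muscle RNA with another, so that a difference between these pairs of tissues and a difference between the kits cannot be told apart.

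Astrocytes take up the glutamate that neurons release, turn it into glutamine and hand it back, and they buffer ions and water through channels on endfeet that wrap the blood vessels. They are joined to each other by gap junctions. After injury or inflammation they become reactive, which is known for a strong increase of the filament protein GFAP together with vimentin and many secreted and interferon-related proteins. Few of these genes are made by astrocytes alone: glutamine synthetase and a glutamate transporter also mark the hepatocytes around the central vein, the gap junction protein couples heart muscle cells, and the water channel lies in the membrane of fast muscle fibers.

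Each value is a level: the log2 intensity of a probe after subtraction of the log2 75th percentile of its own array. A level of 0 is thus that percentile, and 1 unit is a factor of 2. The 75th percentile lay between 470.7 and 1389 intensity units, and 56.5% to 72.7% of the probes of an array were well above background by the flag of the scanner software. A gene with several probes is given by its brightest probe, and levels are compared between arrays for the same probe and never between genes. The tissues carried the markers of their labels: all 10 neuron markers were higher in WT brain than in each of the other 3 tissues, all 8 hepatocyte markers higher in WT liver, all 8 cardiomyocyte markers higher in WT heart and all 8 skeletal fiber markers higher in WT muscle than in WT brain (limma, adjusted p under 0.05 for each gene). The gene of RAP1 itself, Terf2ip, differed between the genotypes by -0.41 to 0.12 in the 4 tissues (adjusted p 0.66 or higher), and since the allele exchanges 1 residue its level does not check the genotype labels. In whole tissue, fewer cells of a type and less RNA per cell cannot be told apart. The number of arrays limits the precision, and 0.1 is the smallest p of an exact permutation test with 3 mice in each genotype.

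The muscle array of KI3 stood apart from the other 5 muscle arrays, and it did so in these genes. Gfap had a level of 1.94 there and lay between -7.54 and -2.60 on the others. Slc1a2 had a level of 0.47 there and lay between -7.33 and -3.69 on the others. A further list of 35 astrocyte markers, none of them among the 9, was used as a check, and 21 of the 35 were highest on this array. Of those 35, 15 were more than 5 log2 units brighter in WT brain than on the median of the other 5 muscle arrays, and the KI3 muscle array held 6.34% to 14.3% of their WT brain intensity, with a median of 9.2%. Of 10 neuron markers, 9 were also highest on this array, and the other, Syt1, had no value there. Among the neuron markers that met the same rule of brightness and had a value, the median was 9.72% of the WT brain intensity. Each difference between the genotypes in muscle is therefore given with and without KI3 below. The KI1 muscle also lay above the WT muscles in some markers that are bright in brain, at lower levels than KI3. Mlc1 was at -2.08 there against -7.35 to -5.35 in the WT muscles, and Aldoc at 1.65 against -1.12 to -0.49. Gfap, at -7.54 in KI1, lay below all WT muscles. KI1 stays in the values without KI3.

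The sequence upstream of a gene's start is shown for 2 genes that were far brighter in WT brain than in any other WT tissue and for the gene with the flattest profile, since they differ in a feature that is read from the letters. RefSeq (GRCm38.p6) upstream sequences were matched for 7 of the 9 genes, and the 250 bases before the transcript start of that table are used here. For Slc1a2 this start lies inside the span annotated for the gene, and for Aldh1l1 the stretch overlaps the beginning of that span. The capitals mark CG dinucleotides, the pairs that can be methylated in mammals. The stretch upstream of Gfap (chr11:102897201-102897450, minus strand) holds 2 CG. That upstream of S100b (chr10:76253586-76253835, plus strand) also holds 2. That upstream of Glul (chr1:153899679-153899928, plus strand) holds 15.
Gfap: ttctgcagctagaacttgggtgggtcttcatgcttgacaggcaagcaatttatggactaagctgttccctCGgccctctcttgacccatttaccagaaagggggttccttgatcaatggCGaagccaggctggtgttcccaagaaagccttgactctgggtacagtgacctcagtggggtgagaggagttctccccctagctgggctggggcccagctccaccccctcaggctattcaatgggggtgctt
S100b: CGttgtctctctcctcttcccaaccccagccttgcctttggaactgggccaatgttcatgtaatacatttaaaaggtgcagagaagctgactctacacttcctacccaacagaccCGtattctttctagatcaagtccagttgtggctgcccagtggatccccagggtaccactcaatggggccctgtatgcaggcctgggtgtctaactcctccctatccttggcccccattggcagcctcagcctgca
Glul: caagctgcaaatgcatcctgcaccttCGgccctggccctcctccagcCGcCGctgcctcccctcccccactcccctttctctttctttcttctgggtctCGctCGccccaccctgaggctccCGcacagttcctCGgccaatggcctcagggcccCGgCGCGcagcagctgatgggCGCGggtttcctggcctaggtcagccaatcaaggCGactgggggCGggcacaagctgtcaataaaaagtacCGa

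The median over 32851 upstream stretches of this length was 6 CG, 29% of them held 2 or fewer and 27.3% held 15 or more. The counts for the other members were 1 for Slc1a2, 2 for Slc1a3, 6 for Gja1 and 7 for Aldh1l1. For the 4 genes with at most 2 CG, the brightest probe was not above background in at least 1 WT tissue, so that only a lower bound exists for the distance between their highest and lowest tissue. For the other 3 the highest WT tissue exceeded the lowest 205-fold (Aldh1l1), 91.1-fold (Gja1) and 2.02-fold (Glul). This is a description of 7 genes. Of the motifs searched on both strands, TATAAA was found in the Slc1a3 stretch and in 12.4% of all stretches, and TTCNNNGAA, the spaced palindrome bound by STAT factors, was also found in the Slc1a3 stretch and in 7.02% of all. TTGGC, 1 arm of the palindrome bound by NFI factors, was found 3 times in the S100b stretch, 2 times in that of Glul and 1 time in that of Slc1a2, and at least 1 time in 41.5% of all. None of these 3 motifs was found in the Gfap, Aldh1l1 or Gja1 stretch. In the Slc1a3 stretch, the 2 motifs do not overlap.

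Among the glutamate uptake genes, Slc1a3 encodes the transporter of radial and Bergmann glia and of astrocytes. Its WT level in the brain was 4.17, 3.76 and 3.79 in WT1, WT2 and WT3. It was 0.39, -1.60 and -0.60 in the muscles and -3.34, -1.97 and -3.26 in the hearts, and in the livers it was not well above background on any of the 3 arrays. The 4 WT tissues did not overlap, and each step in the order brain, muscle, heart and liver passed the test (limma adjusted p 1.5e-05, 0.0059 and 7.1e-05). Brain exceeded muscle by 4.51 log2 units (SE 0.51), a factor of 22.8, and exceeded liver at least 947-fold, with the liver set to the lowest signal that counts as above background. The step between muscle and heart was -1.52 (adjusted p 0.084) without WT1 and -2.05 (0.082) without WT3.

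Slc1a2 encodes the main glutamate transporter of forebrain astrocytes. Its brightest probe, against NM_011393, was at 4.37, 4.12 and 4.02 in the WT livers and at 4.16, 3.49 and 3.61 in the WT brains, which overlapped, with a brain minus liver difference of -0.42 (SE 0.35, 95% interval -1.20 to 0.36, adjusted p 0.32). Heart was far below both, at -2.52, -3.26 and -2.97, and muscle was not well above background in any WT mouse. The probes disagreed on the liver: both probes against NM_001077514 were higher in brain, by 1.27 (SE 0.25, adjusted p 0.00091) and by 6.07 (SE 0.57, adjusted p 2.4e-06), and neither was well above background in any WT heart or muscle. The mean over the 3 probes was 2.31 higher in brain than in liver (adjusted p 2.6e-05). The order of brain and liver for this gene thus depends on the probe, while brain was above heart and muscle with every probe.

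Glul encodes glutamine synthetase, which turns the glutamate taken up into glutamine. Its level was 6.08, 5.90 and 5.90 in the WT brains and 5.48, 6.60 and 5.92 in the WT livers, which overlapped (difference -0.04, SE 0.31, 95% interval -0.72 to 0.64). The WT hearts were at 4.97, 4.60 and 5.38 and the WT muscles at 4.86, 4.88 and 5.33. Brain was higher than heart by 0.98 (SE 0.31, adjusted p 0.018) and than muscle by 0.94 (adjusted p 0.021), and heart and muscle differed by -0.04 (95% interval -0.72 to 0.63). Its level was above 4 on all 24 arrays. Its differences between tissues lost their call under several settings. Brain against muscle lost it without any 1 WT mouse (adjusted p 0.057 to 0.11) and with the slide as a block (0.057). Brain against heart lost it without WT1 (0.08) or WT2 (0.091). Heart against liver lost it without WT2 (0.26), with quantile normalization (0.18), z-scores (0.084) and the slide (0.18). Muscle against liver lost it without WT2 (0.19) or WT3 (0.051), with quantile normalization (0.086), z-scores (0.11) and the slide (0.16).

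Aqp4 encodes the water channel of the astrocyte endfoot. Its level was 2.06, 2.60 and 2.05 in the WT brains, -0.27, 0.75 and 1.90 in the muscles, -1.18, -0.45 and -1.61 in the hearts and -1.98, -0.76 and -1.53 in the livers. Brain did not overlap with any other tissue and exceeded heart by 3.32 (SE 0.52) and liver by 3.66 (SE 0.52), with adjusted p 0.00021 and 7.1e-05. It exceeded muscle by 1.44 (95% interval 0.30 to 2.59, adjusted p 0.032), and this call was lost without WT1 (1.00, adjusted p 0.16) or without WT2 (1.24, adjusted p 0.16). With the slide as a block it was 0.73 (SE 0.99, adjusted p 0.57), since brain and muscle share no slide. Heart and liver overlapped and differed by 0.34 (95% interval -0.80 to 1.48). Of the proteins that hold the channel in place, 7 genes of the dystrophin complex were listed. Their summed intensity relative to the 75th percentile was 15.1 to 18.2 in the WT brains, 109 to 159 in the hearts and 228 to 247 in the muscles. One of the genes, Sgcb, had no value in the WT1 brain, so that the sum of WT1 leaves it out.

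Gfap, the filament gene by which astrocytes are usually stained, had a level of 2.97, 1.98 and 2.67 in the WT brains. With this probe, the brightest, no WT liver or heart was well above background, and brain exceeded heart at least 271-fold and liver at least 293-fold. In WT muscle it was above background only in WT1, at -2.60, where the other 2 probes of the gene were not. A second probe was above background in 2 of 3 WT livers, and brain exceeded liver 138-fold with it (adjusted p 1.5e-08). With that probe no WT muscle was above background, and brain exceeded muscle at least 105-fold.

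S100b encodes a small calcium-binding protein that is also found in Schwann cells, fat cells and cartilage. Its level was 5.67, 5.80 and 5.22 in the WT brains, 0.12, 0.24 and 0.94 in the muscles and -0.69, 0.74 and 0.14 in the hearts, and it was not well above background in the WT livers. Brain was thus 34.9 times muscle and at least 2720-fold above liver. Heart and muscle overlapped, with a difference of -0.37 (95% interval -1.42 to 0.68).

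Aldh1l1 encodes a folate enzyme that is used to label astrocytes throughout the brain. It was brightest in the liver, at 8.17, 8.58 and 7.83 in the WT mice against 4.41, 4.12 and 4.24 in the brain, 3.06, 1.81 and 2.35 in the muscle and 0.48, 0.80 and 0.25 in the heart. The tissues did not overlap, and each step passed the test (adjusted p 7.2e-07, 0.00042 and 0.001). Liver exceeded brain 15.3-fold. With the slide as a block, the step from brain to muscle was 1.39 (SE 0.61, adjusted p 0.093). This was 1 of the 2 members for which another tissue was called above brain.

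The other was Gja1, the gap junction gene of astrocytes and of the working heart. It was highest in the WT hearts, at 3.41, 2.80 and 2.28, followed by brain at 0.78, 0.64 and 0.51, muscle at -1.71, -1.35 and -1.27 and liver at -4.01, -3.81 and -3.22. Heart exceeded brain by 2.19 log2 units, 4.55-fold (adjusted p 9.7e-05), and all 3 steps passed the test. With the slide as a block, the step from brain to muscle was 1.20 in place of 2.09 (SE 0.51, adjusted p 0.081). Sox9, a transcription factor of astrocytes and also of bile ducts and cartilage, was at 0.93, 0.60 and 0.48 in the WT brains and between -1.64 and -0.77 on all other WT arrays. Brain exceeded the other tissues by 1.95 to 2.08 (SE 0.26), and heart, liver and muscle overlapped.

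**Figure D1:**
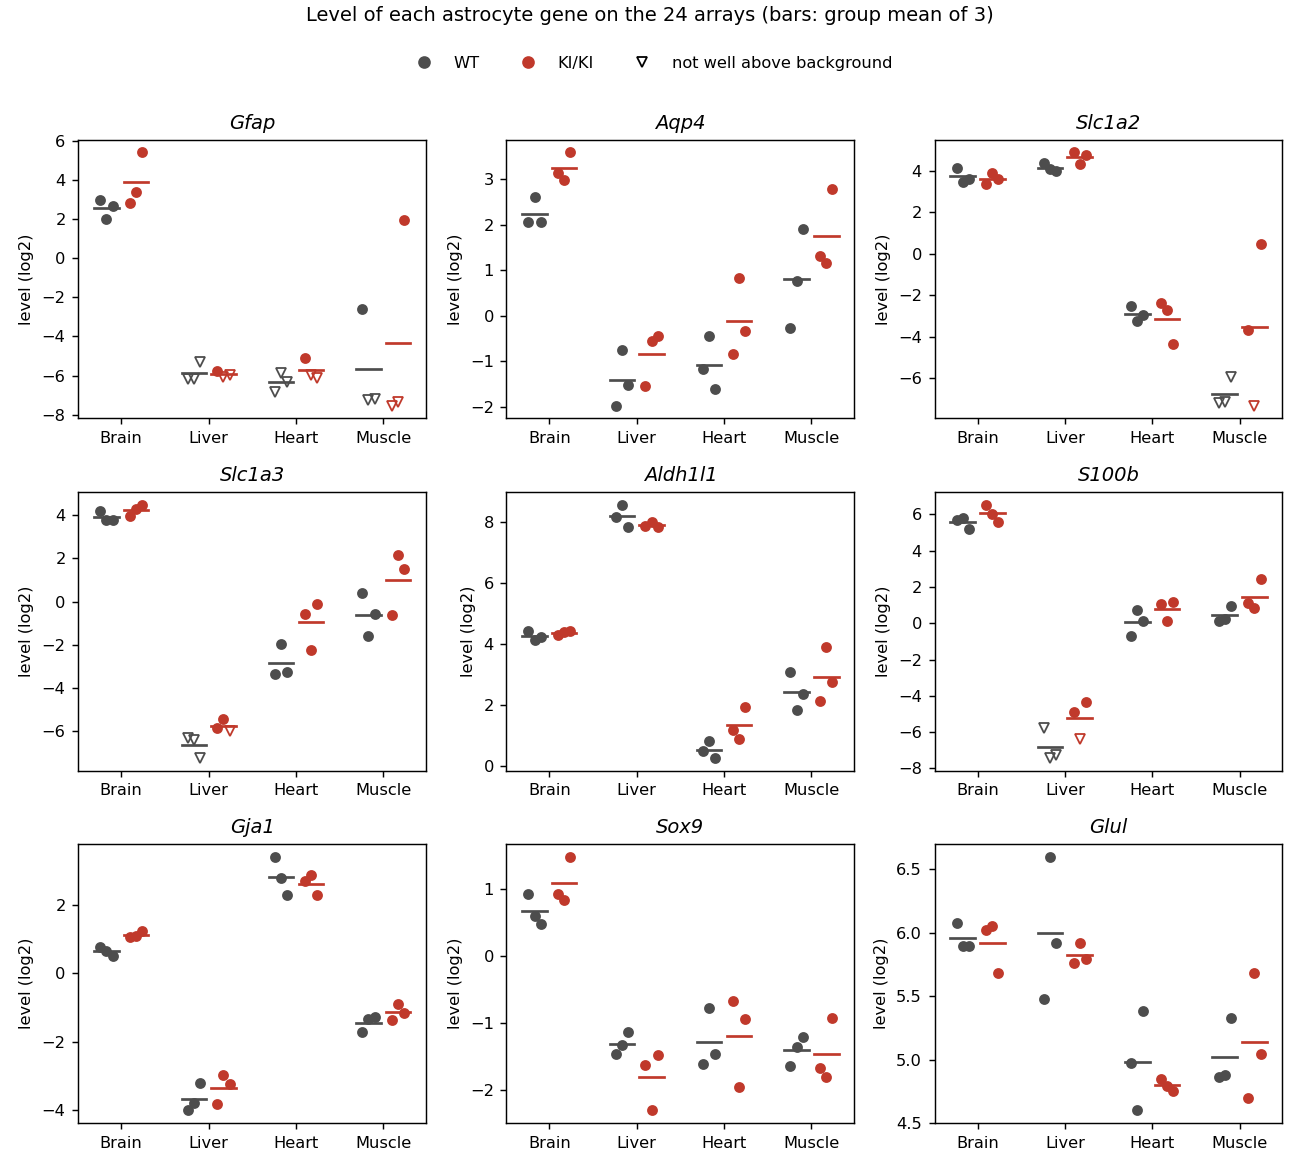
Level of each of the 9 astrocyte genes (log2, with the array's 75th percentile at 0) on the 24 arrays, by tissue, with a point for each mouse and a bar for the mean of the 3 mice of a genotype. Aldh1l1 was highest in liver and Gja1 in heart, and Glul lay between 4.60 and 6.60 everywhere. Gfap and Slc1a2 show the KI3 muscle array far above the other muscles.

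All 9 genes passed the filter on low values in the WT arrays, Gfap mainly through the brain arrays. Counted over them, brain was called higher than heart for 8 and lower for 1. Of the 40758 probes tested in the WT arrays, 23.6% were called higher in brain and 32.4% higher in heart. Brain was called higher than muscle for 9 and lower for 0 (24.4% higher and 34.6% lower of all probes). It was called higher than liver for 6 and lower for 1 (28.6% higher and 39% lower of all probes). Between the other tissues, 6 members differed between heart and liver (background 51%), 7 between muscle and liver (55.4%) and 5 between heart and muscle (29.4%). Liver shared no slide with heart or muscle. With the slide as a block, Aqp4 (adjusted p 0.12) and Glul (0.16) lost their call between muscle and liver. Glul (0.18) lost it between heart and liver. The median brain minus liver difference of all probes was -0.33 and became -0.18 with quantile normalization. For brain minus muscle it was -0.28 and became -0.61 with another background correction. Single genes moved by more with quantile normalization: brain minus liver went from -0.04 to 1.35 for Glul and from -0.42 to 0.46 for Slc1a2. These medians thus set no bound on how far a single difference depends on the scaling. Of the further 35 astrocyte markers, brain was called higher for 25, 27 and 26 and lower for 7, 4 and 5 against liver, heart and muscle. The 36 genes listed as reactive ran the other way, with 4, 2 and 5 called higher in brain and 23, 28 and 29 called lower. Of the 16 genes listed for the glutamate and glutamine cycle, 7, 8 and 8 were called higher in brain and 7, 6 and 3 lower.

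In the brain, none of the 9 genes passed the adjusted threshold between Rap1 KI/KI and WT mice, and 0 of all 37836 probes tested did (0% called). At an unadjusted p under 0.05, 2 members were higher and 0 lower, where 1.11% of all probes were higher and 1.51% lower. The KI/KI and WT mice did not overlap for 2 members, both higher in KI/KI, where 4% of all probes were higher and 3.73% lower without overlap. All 9 were tested and well above background on all 6 brain arrays. The mean level of the KI/KI brains was higher for 7 of 9 members with a median difference of 0.41, where 41.9% of all probes were higher and their median was -0.05.

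Aqp4 was one of the 2. Its brain level was 3.13, 2.98 and 3.59 in KI1, KI2 and KI3, against 2.06, 2.60 and 2.05 in the WT mice. The lowest KI/KI brain thus lay above the highest WT brain. The difference was 1.00 log2 units (SE 0.26, 95% interval 0.38 to 1.62), a factor of 1.99, with an unadjusted p of 0.0075 and an adjusted p of 1. A second Aqp4 probe gave 0.68 (SE 0.22, unadjusted p 0.019), also without overlap. Leaving out any 1 mouse gave 0.82 to 1.18, and it was 1.07 between the pair of mice of 5 months on one slide and 0.96 among the 4 of 2 months on another. Of the 7 genes of its anchoring complex, 0 separated the genotypes, and their median difference was -0.06.

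Gja1 was the other. Its brain level was 1.07, 1.08 and 1.23 in the KI/KI mice against 0.78, 0.64 and 0.51 in the WT mice. The difference was 0.48 (SE 0.17, 95% interval 0.08 to 0.89, unadjusted p 0.026, adjusted p 1). It ran from 0.42 to 0.55 with each mouse left out. Of 41 genes from the families of the members, such as other connexins, aquaporins and S100 proteins, 32 were higher in the KI/KI brains. Where 4% of all probes were higher and 3.73% lower without overlap, 7 of the 38 tested were higher and 2 lower (adjusted p 1 for all of them). Those higher included Gjb2, a second astrocyte connexin, by 0.70 (SE 0.31), and Aqp1, the water channel of the choroid plexus, by 1.04 (SE 0.35). The 2 lower were also a connexin gene, Gja3, and an aquaporin gene, Aqp3. Gja3 was at -5.79, -5.31 and -5.34 in the KI/KI brains against -5.14, -5.2 and -5.05 in the WT brains. Aqp3 was at -6.15, -5.95 and -6.1 against -5.89, -5.32 and -5.74. The summed intensity of the 10 choroid plexus markers, Aqp1 among them, was 68.8, 64.9 and 27.7 in the WT brains and 124, 75.7 and 72.3 in the KI/KI brains, and 10 of 10 were higher in the KI/KI mean. Their part in the Aqp4 and Gja1 differences was not tested.

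Gfap had the largest difference in the brain and also the largest spread. Its level was 2.82, 3.36 and 5.41 in KI1, KI2 and KI3 against 2.97, 1.98 and 2.67 in the WT mice, so that KI3 stood alone above the others and KI1 lay among the WT mice. The difference was 1.33 (SE 0.69, 95% interval -0.35 to 3.00, unadjusted p 0.1, adjusted p 1), and without KI3 it was 0.55. The other 2 Gfap probes gave 1.07 and 1.18, and KI3 was likewise the highest with each. Between the pair of mice on the first slide the difference was -0.15, and among the 4 mice on the second it was 2.06.

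The remaining members differed less in the brain. S100b was 6.55, 6.05 and 5.57 in the KI/KI mice against 5.67, 5.80 and 5.22, a difference of 0.50 (SE 0.31, 95% interval -0.25 to 1.24). Sox9 was 0.93, 0.84 and 1.48 against 0.93, 0.60 and 0.48, a difference of 0.41 (SE 0.25, 95% interval -0.19 to 1.00). Slc1a3 was 3.98, 4.27 and 4.49 against 4.17, 3.76 and 3.79, a difference of 0.34 (SE 0.22, 95% interval -0.19 to 0.87). In each of these the genotypes overlapped. Aldh1l1 differed by 0.11 (SE 0.17, 95% interval -0.29 to 0.52), Glul by -0.04 (SE 0.18, 95% interval -0.49 to 0.40) and Slc1a2 by -0.13 (SE 0.26, 95% interval -0.75 to 0.50). Another Slc1a2 probe, against NM_001077514, was lower in KI/KI without overlap, by -0.42 (SE 0.17, unadjusted p 0.047). Around the transporters, Slc38a5, a glutamine transporter gene, was higher by 0.72 (SE 0.23), without overlap and with an adjusted p of 1. The 16 genes of this cycle had a median difference of -0.08.

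**Figure D2:**
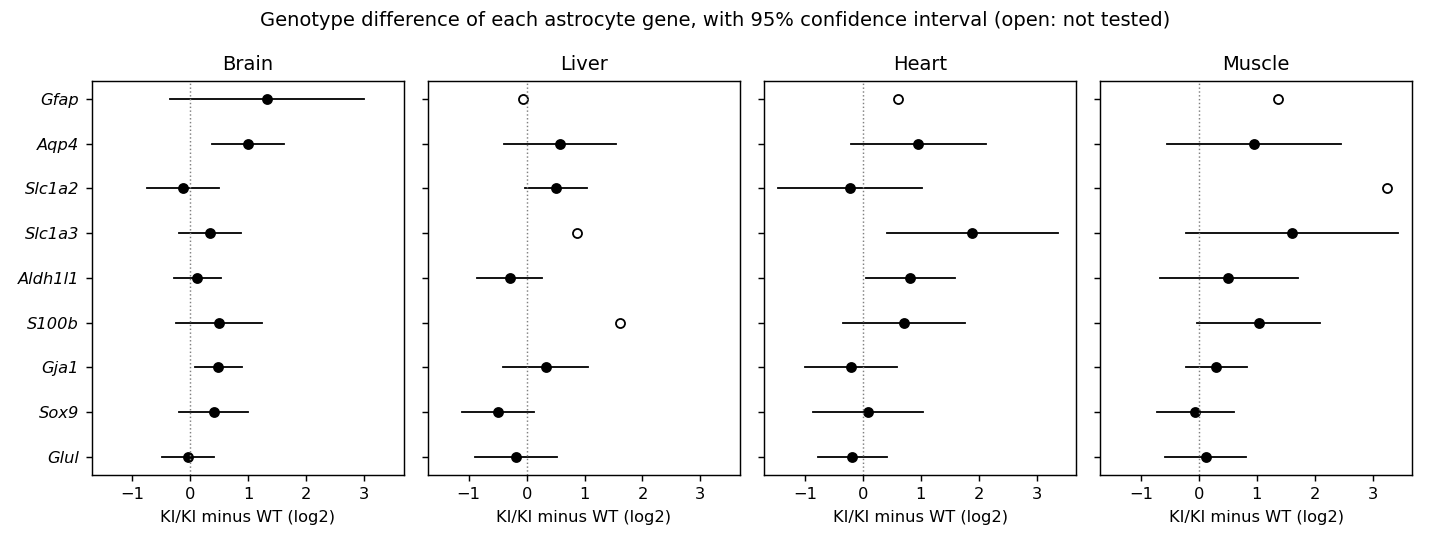
Difference of each astrocyte gene between Rap1 KI/KI and WT mice (log2, KI/KI minus WT) in each tissue, with the 95% confidence interval of limma, n = 3 mice for each genotype, and open points for genes too dim to be tested. The intervals leave out 0 for Aqp4 and Gja1 in brain and for Slc1a3 and Aldh1l1 in heart, and no adjusted p passed 0.05.

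The genes listed as reactive were highest in the KI3 brain, as Gfap was. All 36 had a higher mean in the KI/KI brains, with a median difference of 0.80, and 33 of the 36 were highest in KI3. Of the 36, 32 were tested, 31 of them well above background on all 6 arrays, and 11 did not overlap between the genotypes, where 4% of all probes were higher without overlap. None passed the adjusted threshold. Relative to the mean of the WT brains, the median deviation of the 32 was 0.24, -0.21 and -0.03 in the WT mice, 0.23 in KI1, 0.35 in KI2 and 1.73 in KI3. Without KI3, the KI/KI mean was higher for 27 of 32, with a median of 0.29. Among the 4 mice of 2 months it was higher for 31 of 32 with a median of 1.17, and between WT1 and KI1 for 18 of 32 with a median of 0.05.

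Vim, which encodes the filament partner of GFAP, was at 3.24, 2.88 and 5.65 in the KI/KI brains against 2.65, 2.15 and 2.16 in the WT brains, a difference of 1.60 (SE 0.72, unadjusted p 0.068). Hspb1, a small heat shock protein gene, differed by 0.80 (SE 0.22, unadjusted p 0.01), at 3.47, 3.23 and 3.75 against 2.94, 2.61 and 2.50. B3gnt5, a glycolipid enzyme gene, differed by 1.51 (SE 0.51, unadjusted p 0.024). For these 3 genes every KI/KI brain lay above every WT brain. The following genes were chosen after their values were seen, for a high value in KI3. Timp1, a protease inhibitor gene, was at -3.35, -3.11 and 1.22 in the KI/KI brains against -3.62, -3.73 and -3.48, without overlap. Serpina3n, a protease inhibitor gene used as a marker of reactive astrocytes, was at 2.14 in KI3 and between -1.59 and -0.72 in the others, where the genotypes overlapped. Osmr, an oncostatin M receptor gene, was at -0.91, -0.77 and 1.85 against -1.26, -1.19 and -1.0, also without overlap.

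Of the 35 further astrocyte markers, 6 were highest in KI3. A total of 27 had a higher mean in the KI/KI brains, with a median difference of 0.12, and their median deviation from the WT mean was 0.17 in KI1, 0.26 in KI2 and -0.02 in KI3. Where 4% of all probes were higher and 3.73% lower without overlap, 4 of the 35 were higher and 0 lower. These were Id4, a transcriptional regulator, by 0.52 (SE 0.17), Pla2g7, a phospholipase gene, by 0.46 (SE 0.20), Mlc1, an endfoot membrane protein gene, by 0.34 (SE 0.18), and Ntsr2, a neurotensin receptor gene, by 0.22 (SE 0.17). Adjusted p was 1 for each. The bright metabolic marker Aldoc was at 7.50 in KI3, below all 3 WT brains at 8.0, 8.08 and 7.87.

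**Figure D3:**
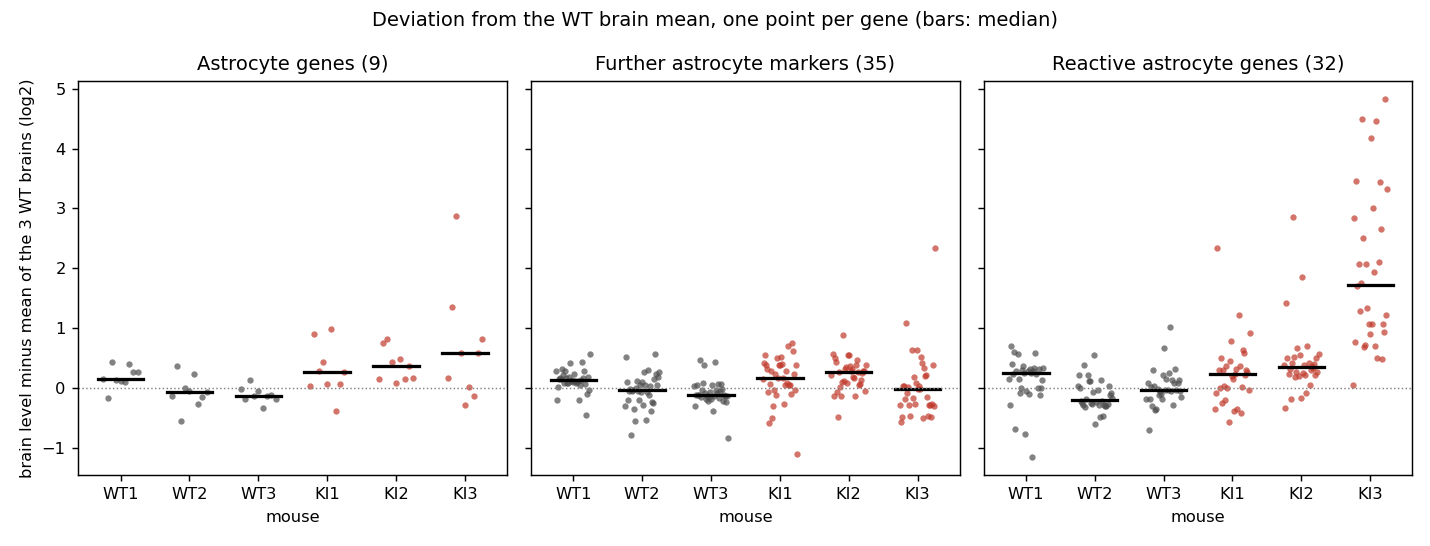
Deviation of each gene from the mean of the 3 WT brains (log2) in each of the 6 brains, for the astrocyte genes, the further astrocyte markers and the tested reactive astrocyte genes, with a point for each gene and a bar for the median. The bar of the reactive genes is at 1.73 in KI3, and that of the further markers is at -0.02 there.

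Markers of other brain cells also differed between these brains. The summed intensity of 10 microglia markers, relative to the 75th percentile, was 115 to 133 in the WT brains, 121 in KI1, 117 in KI2 and 203 in KI3, and 9 of 10 were highest in KI3. Across the 6 brains, which are 6 arrays on 2 slides, this sum followed Gfap with r = 0.93 (rho 0.83) and Sox9 with r = 0.91 (rho 0.93), and these correlations are given as a description. The 10 neuron markers summed to 393 in KI3 and to 490 to 673 in the other 5 brains, and Glul followed them with r = 0.96 (rho 0.93, n = 6). The 10 markers of cerebellum summed to 41.9, 19.8 and 9.86 in the WT brains and to 168, 74.2 and 15.5 in the KI/KI brains, and S100b followed them with r = 0.94 (rho 0.94, n = 6). The correlations named here are a few of the many possible pairs of a member and a marker list. Over 6 arrays a high r does not tie a gene to a cell type or region. The part of these cells and regions in the astrocyte gene values was not tested.

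In the heart, 8 of the 9 genes could be tested and 0 passed the adjusted threshold (0% of 34848 probes called, lowest adjusted p 0.65). One member was higher in KI/KI without overlap, where 6.03% of all probes were higher and 8.68% lower. At an unadjusted p under 0.05, 2 were higher and 0 lower, where 5.09% of all probes were higher and 2.42% lower. Aldh1l1 was at 1.18, 0.87 and 1.94 in the KI/KI hearts against 0.48, 0.80 and 0.25 in the WT hearts, a difference of 0.82 (SE 0.33, 95% interval 0.05 to 1.59, unadjusted p 0.04), and 0.52 without KI3. Slc1a3 was at -0.56, -2.23 and -0.12 against -3.34, -1.97 and -3.26, where KI2 lay among the WT hearts. Its difference was 1.89 (SE 0.62, 95% interval 0.41 to 3.37, unadjusted p 0.02), and 1.46 without KI3. Aqp4 differed by 0.96 (SE 0.49, 95% interval -0.21 to 2.12) and S100b by 0.72 (SE 0.45, 95% interval -0.34 to 1.77), both with overlap. Gja1, known to be made by the heart muscle cells themselves, was at 2.71, 2.87 and 2.29 against 3.41, 2.80 and 2.28, a difference of -0.21 (SE 0.33, 95% interval -1.0 to 0.59). Sox9 differed by 0.09 (SE 0.40), Glul by -0.18 (SE 0.25) and Slc1a2 by -0.22 (SE 0.52).

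Fat cell markers varied together with Aldh1l1 and Slc1a3 in these hearts. The summed intensity of 8 such markers was 240, 230 and 246 in the WT hearts and 405, 284 and 706 in KI1, KI2 and KI3. Fabp4, at a level of 7.90, 7.63 and 7.77, made up most of each WT sum. Adipoq was at -4.23, 0.72 and -0.15 in the WT hearts and at 4.05, 0.42 and 4.86 in the KI/KI hearts. Of the 8, 7 were tested, and all 7 were higher in the KI/KI mean with a median difference of 3.82 and of 2.95 without KI3. Across the 6 hearts the sum followed Aldh1l1 with r = 0.94 (rho 0.77) and Slc1a3 with r = 0.87 (rho 0.66). In muscle the sum was 1090, 195 and 585 in the WT mice and 520, 1550 and 533 in the KI/KI mice. Across the 6 muscles it followed Aldh1l1 with r = 0.91 (rho 0.94) and Slc1a3 with r = 0.78 (rho 0.83). In the brain the fat cell sum did not exceed 0.434 on any array. Of 9 Schwann cell markers, 8 were also higher in the KI/KI hearts, with a median difference of 0.86. The heart and muscle points share slides and a scaling, and the part of fat cells or Schwann cells in the 2 genes was not tested. Of the further astrocyte markers, Slc7a10, an amino acid transporter gene, was at -2.16, -3.93 and 1.72 in the KI/KI hearts against -7.74, -4.39 and -4.31. Its difference was 4.02 (SE 1.55, unadjusted p 0.036). The WT1 value of -7.74 lay below -5.53, the dimmest signal that counted as above background on that array. The size of this difference thus rests in part on a background reading. Fabp7, a fatty acid binding protein gene, differed by 1.26 (SE 0.42, unadjusted p 0.02). Neither gene overlapped between the genotypes. Ppp1r3c, a gene of glycogen metabolism, was lower without overlap, at 3.31, 3.34 and 2.95 against 3.89, 3.41 and 3.81, a difference of -0.50 (SE 0.23, unadjusted p 0.068).

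**Figure D4:**
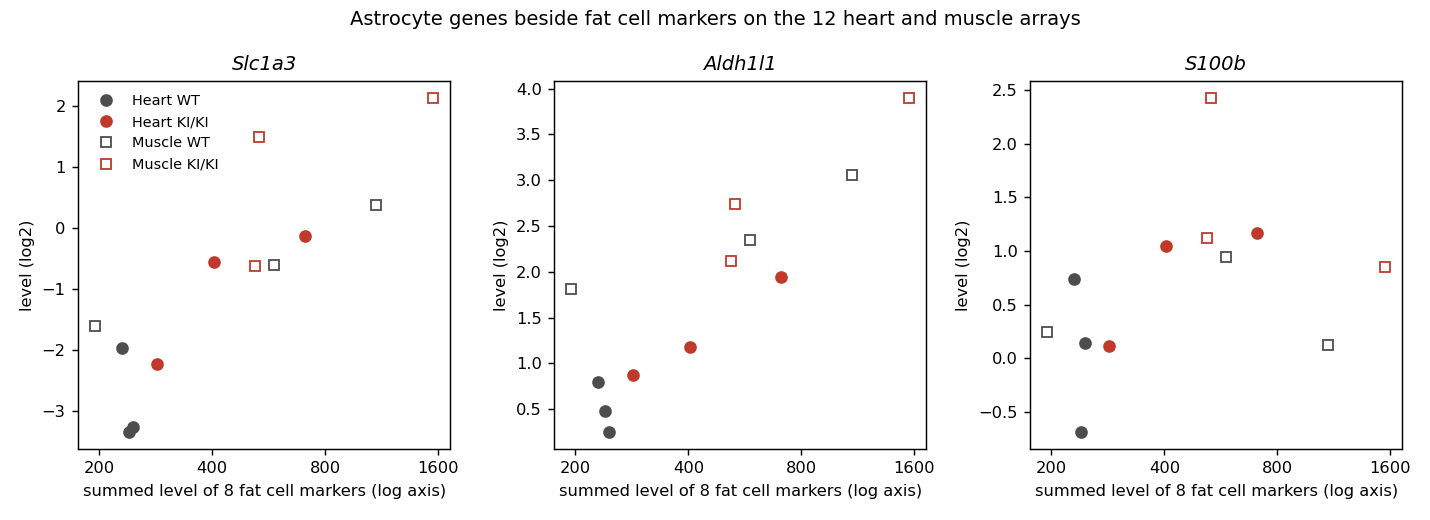
Level (log2) of astrocyte genes against the summed intensity of 8 fat cell markers (array's 75th percentile set to 1, log axis) on the 6 heart and 6 muscle arrays, with a point for each array. Aldh1l1 is higher where the sum is higher in both tissues (r = 0.94 in heart and 0.91 in muscle, n = 6 each).

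In the liver, 6 of the 9 genes could be tested by their brightest probe and 0 passed (0% of 35240 probes called). None of the 6 had an unadjusted p under 0.05, where 1.25% of all probes were higher and 0.883% lower. The brightest probes of Gfap, Slc1a3 and S100b were not well above background in any WT liver. A second Gfap probe was tested and differed by 0.14 (SE 0.27, unadjusted p 0.62). Slc1a3 was so in KI1 and KI2, at -5.86 and -5.46, and lay above all WT livers in each KI/KI liver, and S100b was so in KI1 and KI3, at -4.87 and -4.35. With WT values below the background limit of their array raised to it, the KI/KI mean was 1.15-fold higher for Slc1a3 and 1.58-fold for S100b. Each KI/KI mean takes in a liver that was not well above background, KI3 for Slc1a3 and KI2 for S100b. These folds are thus not lower bounds. Sox9 was lower in KI/KI without overlap, at -1.63, -2.30 and -1.47 against -1.46, -1.33 and -1.13, a difference of -0.49 (SE 0.27, 95% interval -1.12 to 0.13), where 3.07% of all probes were lower and 2.77% higher without overlap. Slc1a2, which is also made by pericentral hepatocytes, was at 4.91, 4.34 and 4.79 against 4.37, 4.12 and 4.02, a difference of 0.51 (SE 0.23, 95% interval -0.03 to 1.05). A second Slc1a2 probe gave 0.66 (SE 0.27, unadjusted p 0.042), without overlap. The third gave -0.40 (SE 0.76, unadjusted p 0.61), with overlap. Glul, which marks the same cells, differed by -0.18 (SE 0.30, 95% interval -0.89 to 0.53), and Aldh1l1, which was highest in this tissue, by -0.29 (SE 0.24, 95% interval -0.85 to 0.27). Aqp4 differed by 0.57 (SE 0.41) and Gja1 by 0.33 (SE 0.31).

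In the muscle, 7 of the 9 genes could be tested and 0 passed (0% of 32382 probes called), and none separated the genotypes, where 2.36% of all probes were higher and 4.09% lower without overlap. None had an unadjusted p under 0.05 (1.44% higher and 1.04% lower of all probes). S100b was at 1.12, 0.85 and 2.43 in the KI/KI mice against 0.12, 0.24 and 0.94, a difference of 1.03 (SE 0.45, 95% interval -0.03 to 2.09), and of 0.55 without KI3. Slc1a3 was at -0.61, 2.14 and 1.49 against 0.39, -1.60 and -0.60, a difference of 1.61 (SE 0.78, 95% interval -0.23 to 3.44), and of 1.37 without KI3. Aqp4 was at 1.30, 1.16 and 2.78 against -0.27, 0.75 and 1.90, a difference of 0.95 (SE 0.63, 95% interval -0.55 to 2.45), and of 0.43 without KI3. Aldh1l1 differed by 0.51 (0.60 without KI3), Gja1 by 0.30 (0.31), Glul by 0.12 (0.17) and Sox9 by -0.06 (-0.33). Gfap and Slc1a2 were above background on too few arrays to be tested.

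On the KI3 muscle array, the 9 genes reached very different shares of their level in the brain. Slc1a2 reached 10.2% of the WT brain intensity and S100b 11.4%, near the median of 9.2% of the further markers that are bright in brain. Gfap reached 66.1% of the WT brain mean but 9.03% of the brain of the same mouse, where it was highest of the 6. For the other members the shares were higher, from 18.7% for Slc1a3 to 52.8% for Glul, and Aqp4 was at 146%. Of the 9 members, 5 were highest on this array among the 6 muscles: Gfap, Aqp4, Slc1a2, S100b and Sox9. Myelin markers gave a lower share, with a median of 5.26% over the 5 that were bright in brain.

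**Figure D5:**
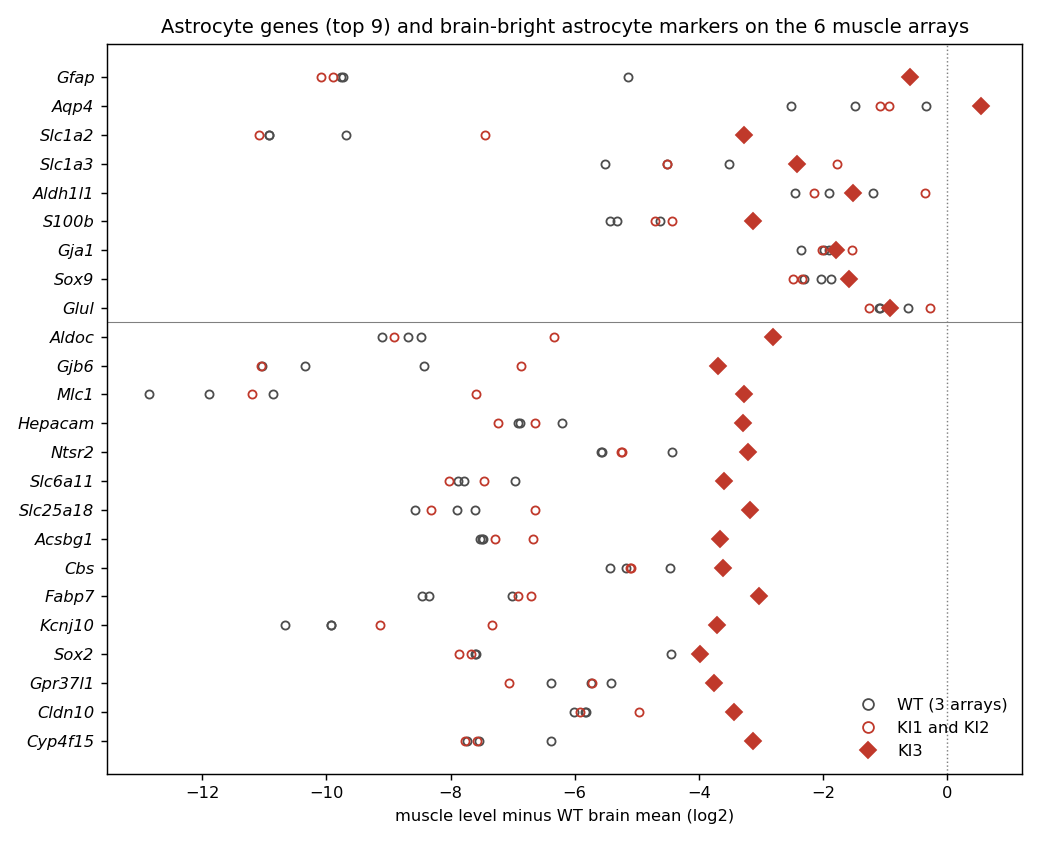
Level of each of the 9 astrocyte genes and of the 15 further astrocyte markers that are bright in brain on the 6 muscle arrays, as the difference from the WT brain mean (log2, 0 is the WT brain mean), with a point for each array. KI3 stands to the right of the other muscles for the 15 markers, at 6.34% to 14.3% of the WT brain intensity.

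Across tissues, Aqp4, Slc1a3 and S100b had a higher mean in KI/KI than in WT mice in all 4 tissues, where 5.39% of all 43675 probes did. The mean over the 4 tissues of a mouse gave -0.76, -0.32 and -0.04 for Slc1a3 in the KI/KI mice against -1.28, -1.55 and -1.83 in the WT mice, a difference of 1.18 (SD 0.36 and 0.27, n = 3 each). For S100b it gave 0.96, 0.16 and 1.20 against -0.16, -0.16 and -0.24, a difference of 0.96. Both means take in liver values that were not above background in any WT mouse. Gja1 also separated the genotypes, by 0.23, where 4.24% of all probes were higher and 6.78% lower without overlap. For these 3 genes the two-sided exact permutation p was 0.1, the smallest that 3 against 3 allows. With normexp background correction the differences were smaller, at 0.741 for Slc1a3, 0.603 for S100b and 0.13 for Gja1. Aqp4 overlapped, at 0.51, 1.10 and 1.39 against -0.34, 0.54 and 0.20, a difference of 0.87 (exact permutation p 0.2). Over liver, brain and heart alone, without any muscle array, the difference was 1.03 for Slc1a3 and 0.94 for S100b, still without overlap, and 0.20 for Gja1 with overlap, and 3.36% of all probes were higher without overlap. Sox9 and Glul differed by -0.01 and -0.07 over the 4 tissues. Whether the genotype difference depended on the tissue was tested over all 24 arrays, and 0 of 43675 probes passed an F test of the interaction (limma, 2.94% at an unadjusted p under 0.05), and the unadjusted p of the 9 members lay between 0.13 and 0.94.

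The profiles of the 9 genes differed among themselves. Over the 24 arrays, which share tissues and slides, the 36 pairs of members had a Pearson r between -0.82 and 0.96 with a median of 0.39, and over the 6 brain arrays alone r lay between -0.63 and 0.90 with a median of 0.45. Of 18556 genes, those whose levels over the 24 arrays were most like Gfap were Dscaml1 (r = 0.968), Elfn2 and Fbxo41. Those most like S100b were Kcna1 (r = 0.991), Tmod2 and Larp6, and those most like Slc1a3 were Fbxo27 (r = 0.985), Tenm4 and Scd2. Aldh1l1 was followed by Slc6a13 (r = 0.987), Gja1 by Smim3 (r = 0.977), Sox9 by Cdhr1 (r = 0.953), Glul by Nectin1 (r = 0.932) and Aqp4 by Snhg10 (r = 0.915). Over the 6 brain arrays alone, the genes most like Gfap were Ccdc102a (r = 0.998), Apol9b (r = 0.996) and Rab3il1 (r = 0.996) of 16960, where the KI3 brain sets most of the spread.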

How the data were processed

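Total RNA was hybridized to 24 1-color Agilent arrays (4 tissues, 2 genotypes, 3 mice for each). The intensity that the authors deposited for a spot is the processed signal of Feature Extraction 12.0.3.1, background-subtracted but not normalized across arrays. They also deposited a score for each spot, found here to be the z-score of its log10 processed signal within the array (largest difference 0.005). For the array analysis the methods only cite earlier work.

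Levels were log2 processed signals, averaged over the spots of a probe after removal of control and outlier-flagged spots, minus the array's 75th percentile. Probes were named through RefSeq accessions (GRCm38.p6), which gave 28331 named and 27350 unnamed probes. For each gene, the probe with the highest mean over the 24 arrays was used. Tested probes were those flagged well above background on 3 or more arrays of the fit. Genotypes were compared within each tissue (6 arrays), WT tissues in 1 fit of 12 arrays, and the interaction over 24 arrays, with limma 3.58.1 in R 4.3.3 (with statmod 1.5.0, and version 1.17.8 of data.table), two-sided, with Benjamini-Hochberg adjustment over all tested probes and a threshold of 0.05. Lower bounds on a fold put a group that was nowhere above background at the dimmest signal that the flag accepts on each array. An array whose own level was brighter than that signal kept its own level. Summed intensities are sums of linear levels over a marker list. Upstream sequences are those of RefSeq, and figures were drawn with matplotlib 3.10.9 in Python 3.11.15.

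The members and all gene lists were chosen with earlier results of these data known. Named genes were the 9 members, and from each list at most 5 genes that separated the genotypes, by the smallest p, or at most the 5 brightest, with up to 3 genes by likeness for each member. A few results are not reported here. Other alternatives were quantile normalization, normexp correction with an offset of 50 on median signals (mean signals were not used here), the z-scores, no filter on dim probes, a filter that asks for all arrays, trend and robust eBayes, the mean over the probes of a gene, age or slide as a block, each mouse left out, and KI/KI arrays in place of WT. Within-slide differences, the slide in the WT fit, means without muscle and list medians without each mouse were added after the data were seen. The same animals gave all tissues, as the animal numbers in the labels show, and deviations of 2 tissues of a mouse from their group means correlated by -0.21 to 0.26 over 36 pairs (median 0.04, 8 above 0.1). The procedures were tested on simulated data. Dixon's test was not applied to groups of 3.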

Additional observations from a re-analysis of the deposited data

How the results depend on the processing

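With a threshold of 0.05 on the adjusted p, 0 members were called between the genotypes in any tissue and 0 for the interaction, with the mouse as a replicate block (0 in each) and under every other alternative listed above. The WT tissue counts were 7, 9, 9, 6, 7 and 5 with the replicate block, the same as without it. Over all probes, 0 were called for the interaction, 4 without WT replicate 1 and 1 without WT replicate 3. If only probes above background on all arrays are kept, which drops members that are dim in a tissue, 4 members were called between brain and liver, 5 between brain and heart, 5 between brain and muscle, 3 between heart and liver, 4 between muscle and liver and 3 between heart and muscle. Heart against muscle gave 3 in the KI/KI arrays and between 3 and 5 with each WT mouse left out, and brain against muscle gave 5 with the slide as a block, where Aqp4 (0.73), Aldh1l1 (1.39), Gja1 (1.2) and Glul (1.46) lost their call; these tissues share no slide. The share of brain intensity on the KI3 muscle array was 6.71% with quantile normalization and 11.6% with normexp. The causes were not tested. The brightest probes of Gfap in liver, heart and muscle, of Slc1a3 and S100b in liver and of Slc1a2 in muscle were too dim for a genotype test.

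Of the alternative values for single members, 480 genotype differences kept their direction and side of the threshold and 17 turned sign. All of these were small. With each mouse left out, Glul ran from -0.44 to 0.12 in liver, from -0.11 to 0.07 in brain, from -0.37 to 0.01 in heart and from -0.15 to 0.34 in muscle. Slc1a2 ran from -0.27 to 0.08 in brain and from -0.6 to 0.38 in heart, Gja1 from -0.48 to 0.08 in heart, and Sox9 from -0.17 to 0.48 in heart and from -0.33 to 0.11 in muscle. Glul in heart was 0.04 with quantile normalization and Slc1a2 in heart was 0.08 as the mean of its probes. Among the tissue differences, 27 alternative values of 11 differences kept their direction but lost their call. These included Aqp4 heart minus muscle without WT3 (-1.06, adjusted p 0.22). Slc1a2 heart minus muscle in the KI/KI arrays was another (0.38, adjusted p 0.87). Between WT tissues, the direction turned for Slc1a2 brain minus liver (0.46 with quantile normalization and 2.31 as the mean of its probes) and for Glul brain minus liver (1.35 with quantile normalization, adjusted p 0.0022, then 0.1 with z-scores, -0.36 to 0.29 with each WT mouse left out, 0.09 in the KI/KI arrays and 0.08 with the slide as a block). It turned for Glul heart minus muscle (0.14 with quantile normalization, 0.05 with normexp, -0.11 to 0.08 with each WT mouse left out and 0.35 with the slide), Sox9 heart minus liver (-0.1 with quantile normalization and -0.24 to 0.21 with each WT mouse left out), Sox9 heart minus muscle (-0.11 to 0.31 with each WT mouse left out and -0.05 with the slide), Sox9 muscle minus liver (0.33 in the KI/KI arrays and 0.56 with the slide), Gfap muscle minus liver (-0.09 with quantile normalization, 0 with z-scores and -0.43 as the mean of its probes) and Gfap heart minus liver (0.21 in the KI/KI arrays and 0.2 with the slide).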
